A study of Mus musculus with 18 samples.

Results

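The genes described here lie on or beside the path of the insulin signal from the receptor to the glucose transporter. They are 10 of the 33440 genes to which the deposited transcripts were summed and were listed by their place in that pathway: the receptor Insr, the docking proteins Irs1 and Irs2, the PI3K regulatory subunit Pik3r1, the kinases Akt1 and Akt2, the Rab GTPase-activating protein Tbc1d4, the transporters Slc2a1 and Slc2a4, and the phosphatase subunit Ppp2r1b. All 10 were found in all 18 libraries, and all 10 passed the filter on low counts in both experiments.

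RNA was sequenced in 2 experiments on C57BL/6 mouse adipocytes, to find genes that act downstream of IRF3, a transcription factor of the innate immune response. In the first, stromal vascular fraction (SVF) cells from inguinal fat of mice with a Cre-activated allele of constitutively active IRF3 (IRF3-2D; the labels write IRF-2D) were differentiated in culture, given AAV on day 6 and harvested on day 8; cells given AAV with GFP are WT (n = 3) and those given AAV with Cre are FI3OE (n = 3). Both groups carry the allele, so FI3OE differs from WT by Cre as well as by IRF3-2D. By the study's methods, such cultures are kept after induction in a medium with added insulin and rosiglitazone. In the second, RNA on the ribosomes of adipocytes was taken by TRAP from epididymal fat (eWAT) of Ad-NuTRAP mice, called WT (n = 6), and of FI3KO-Ad-NuTRAP mice, in which Irf3 is deleted in adipocytes (n = 6), after 8 weeks of high-fat diet (HFD) at thermoneutrality. The study's methods name males put on this diet at 8 weeks of age, but for a longer feeding than the series' design gives for the TRAP mice, so sex and age are not stated for these mice themselves. In both TRAP groups the Adipoq promoter drives Cre and a GFP-tagged ribosomal protein is made where Cre acts.

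Insulin binds its receptor, which phosphorylates IRS proteins. These recruit PI3K through its p85 subunit, and the lipid that PI3K makes brings AKT to the membrane. AKT2 phosphorylates TBC1D4 (AS160) and so releases Rab proteins that send vesicles with GLUT4, the product of Slc2a4, to the cell surface; GLUT1, the product of Slc2a1, takes up glucose without insulin. PP2A removes phosphate from AKT and other kinases, and Ppp2r1b encodes the beta form of its scaffold. FOXO proteins, which AKT keeps out of the nucleus, raise Irs2 in fasted liver.

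Libraries held 21541334 to 36932452 reads in the culture experiment and 25259869 to 40490283 in the TRAP experiment. Irf3 rose in FI3OE from 58.6, 56.9 and 56.8 CPM (reads scaled to the size of the library) in WT to 92.1, 100.3 and 90.8 CPM. In TRAP, Irf3-202, the protein-coding transcript with the most reads in WT, had 163.6 to 388.1 reads in the WT libraries and 0 reads in each of the 6 FI3KO libraries, so no library went against its label. Over the whole gene Irf3 was 17.2 to 23.2 CPM in WT and 12.4 to 18.8 CPM in FI3KO, with Irf3-211 at 2.90 to 6.94 CPM against at most 0.254 CPM in WT and the retained-intron transcript Irf3-207, as abundant as Irf3-202 in WT, at 2.04 to 4.18 CPM against 7.02 to 9.10 CPM. TRAP libraries of replicates 1 and 2 stood apart from those of replicates 3 to 6 in both genotypes. WT replicates 1 and 2 were much closer to each other than any other TRAP pair (a per-gene chi-square 1.70 times that of sampling noise, against 2.94 to 11.2 for WT pairs among replicates 3 to 6). Culture pairs were at 1.95 to 2.35 in WT and 2.22 to 2.705 in FI3OE. The 2 libraries differed by more than sampling noise and were kept as 2, but this ratio cannot tell whether they share an animal. The members' TRAP differences are therefore also given within the 2 sets. The labels call the libraries biological replicates but do not tie them to animals or cultures, so the p-values measure the spread between these libraries.

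The cultures held RNA of cells other than adipocytes. Adipocyte markers summed to 22890 to 23180 TPM (a level scaled for transcript length and library size) in WT cultures and 20450 to 21250 TPM in FI3OE, preadipocyte and fibroblast markers to 7780 to 7964 TPM and 9144 to 9193 TPM, and macrophage markers to 3394 to 3608 TPM and 3488 to 3507 TPM. In TRAP the adipocyte markers reached 60160 to 84670 TPM in WT and 74570 to 96000 TPM in FI3KO, with macrophage markers at 58.7 to 153.7 TPM and 26.7 to 59.1 TPM and fibroblast markers at 586.6 to 1290 TPM and 383.9 to 645.5 TPM. Endothelial markers were at most 90.6 TPM and mesothelial ones at most 38.1 TPM in any library. The epididymal markers summed to at most 3.14 TPM, and 8 to 11 of the 12 had 3 reads or fewer in all libraries of a group. In bulk RNA, fewer cells of a type and less RNA per cell cannot be told apart.

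The sequences upstream of the docking protein genes are shown because Irs1 and Irs2 carried the largest differences among the upstream members. RefSeq start sites on GRCm38.p6 gave 13 windows for 8 members, each the 250 bases before a start; Insr and Slc2a4 had no entry. The Irs1 window is chr1:82291440-82291689 and the Irs2 window chr8:11008930-11009179, both on the minus strand. Capitals mark the E-box CACGTG and the insulin response element TGTTTTG, letters chosen after these sequences had been read.
Irs1: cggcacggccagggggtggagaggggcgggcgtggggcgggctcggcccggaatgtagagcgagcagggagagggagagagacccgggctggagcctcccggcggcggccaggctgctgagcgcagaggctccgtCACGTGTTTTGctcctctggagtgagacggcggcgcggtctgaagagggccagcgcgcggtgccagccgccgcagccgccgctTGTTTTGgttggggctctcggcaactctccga
Irs2: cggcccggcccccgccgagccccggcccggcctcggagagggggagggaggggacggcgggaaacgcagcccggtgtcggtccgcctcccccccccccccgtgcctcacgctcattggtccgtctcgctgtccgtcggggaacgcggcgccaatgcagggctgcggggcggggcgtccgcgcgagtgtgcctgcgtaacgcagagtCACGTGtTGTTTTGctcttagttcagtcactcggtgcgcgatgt

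In Irs1 the 2 motifs overlap, with the E-box starting 115 bases before the start site and the TGTTTTG 111 bases before it, and TGTTTTG occurs once more nearer the start. In Irs2 a single base separates them, at 44 and 37 bases. No other member window held either motif. Searched on both strands, CACGTG was in 6.02% and TGTTTTG in 5.56% of all 32851 windows, and both were in 97 of them (0.295%). The IRF half-site AANNGAAA was in 21.3% of all windows and in none of the 13 of the members. The FOXO site GTAAACA was in 3.17% and in 1 window of Akt1, while the GC box GGGCGG was in 32.7% of all windows and in 8 of the 13. A match describes these letters only and is no evidence of binding.

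In WT cultures the transporter Slc2a4 was the highest of the 10 genes at 252.3 ± 10.4 TPM (SD, n = 3), a level per length. Akt2 followed with 201.8 ± 0.34 TPM, Pik3r1 with 189.0 ± 9.4 TPM, Akt1 with 147.4 ± 2.8 TPM and Ppp2r1b with 113.1 ± 3.4 TPM. These 5 did not overlap with their neighbours in the order. Insr (104.5 ± 3.5 TPM) and Slc2a1 (101.6 ± 10.1 TPM) overlapped, as did Irs1 (50.8 ± 1.9 TPM) and Tbc1d4 (48.1 ± 2.3 TPM), and Irs2 was the lowest at 22.3 ± 1.2 TPM.

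In WT eWAT adipocytes the order was different. Akt2 led with 384.5 ± 81.7 TPM (SD, n = 6), then Ppp2r1b with 286.9 ± 24.3 TPM and Slc2a4 with 260.2 ± 59.5 TPM, and the last 2 overlapped. Pik3r1 (109.2 ± 12.5 TPM) and Insr (100.7 ± 10.1 TPM) overlapped below them, followed by Irs2 (64.0 ± 25.0 TPM), Akt1 (60.6 ± 2.6 TPM) and Tbc1d4 (55.5 ± 4.0 TPM), each overlapping its neighbour. Irs1 (16.9 ± 4.4 TPM) and Slc2a1 (12.2 ± 1.0 TPM) were the lowest and overlapped. The experiments differ in depot, cell source, RNA fraction and diet, and the cultures' medium held added insulin and rosiglitazone. Their levels are therefore set side by side and were not tested. With reads per kilobase of the longest transcript in place of TPM, 7 of 10 ranks moved in culture, where Pik3r1 came first, and 4 of 10 in TRAP, where Ppp2r1b came first.

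**Figure D1:**
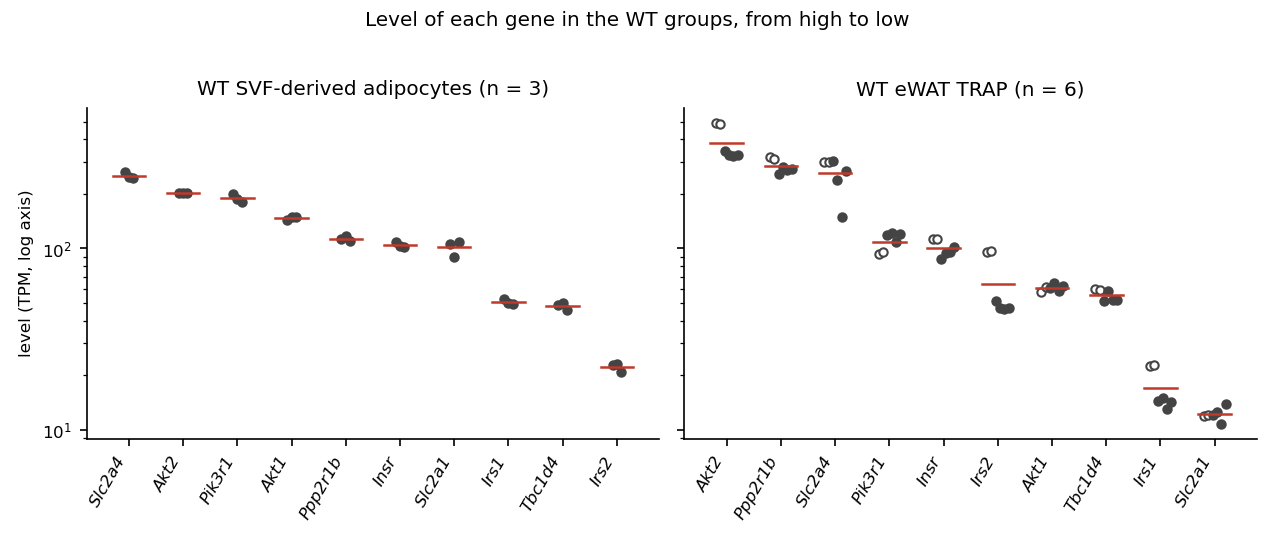
Level of each gene in the WT groups in TPM on a log axis, ordered by the mean (red line). Points are libraries, and open points are TRAP replicates 1 and 2. Slc2a4 is highest in culture (252.3 TPM) and Akt2 in eWAT TRAP (384.5 TPM), while Slc2a1 is 101.6 TPM in culture and 12.2 TPM in TRAP.

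Ratios of related genes in the 2 settings are set side by side and were not tested. In WT cultures the Irs1 to Irs2 ratio of TPM was 2.17 to 2.36, and in WT TRAP it was 0.233 to 0.316. The Akt2 to Akt1 ratio was 1.354 to 1.399 in WT cultures and 5.10 to 8.62 in WT TRAP, and the Slc2a4 to Slc2a1 ratio was 2.26 to 2.75 and 14.0 to 25.5. Ppp2r1b was below Ppp2r1a, the alpha form of the scaffold, in every WT culture (ratio 0.544 to 0.614) and between 0.955 and 1.45 times its level in WT TRAP.

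With IRF3-2D, the receptor, both docking proteins and the insulin-regulated transporter fell and the phosphatase scaffold rose. The genes were compared by edgeR's quasi-likelihood test across all genes, and a gene is called at a Benjamini-Hochberg adjusted p of at most 0.05. Of the 10 members 5 were called, 4 lower and 1 higher, where 37.0% of the 16105 genes tested were called (20.2% higher and 16.8% lower). None passed the study's second cutoff, an absolute log2 fold change of 1, which 3.62% of all genes did. The groups did not overlap for 7 of the 10, against 49.8% of all genes. The members' median log2 fold change was -0.04, and that of all genes -0.0047. With 3 libraries against 3, an exact two-sided permutation test of a single gene cannot go below p = 0.10.

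Insr, on chr8:3122061-3279617, was 291.2, 284.0 and 273.9 CPM in WT and 244.0, 241.5 and 241.8 CPM in FI3OE. All FI3OE libraries lay below all WT ones, and the log2 fold change was -0.21 (SE 0.035, adjusted p = 0.000722). It was the smallest of the called differences.

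Irs1, on chr1:82233101-82291416, is the docking protein most tied to insulin-stimulated glucose uptake in fat and muscle. It was 254.5, 240.4 and 238.5 CPM in WT and 188.9, 194.4 and 186.3 CPM in FI3OE, a log2 fold change of -0.35 (SE 0.038, adjusted p = 2.87e-05). Irs2, on chr8:10984681-11008458, was 62.2, 63.3 and 57.4 CPM in WT and 40.0, 41.6 and 39.6 CPM in FI3OE, a log2 fold change of -0.58 (SE 0.048, adjusted p = 2.83e-06). Neither gene overlapped between the groups. The Irs1 to Irs2 ratio of TPM was 2.67 to 2.73 in FI3OE against 2.17 to 2.36 in WT, without overlap (exact p = 0.10, the smallest possible).

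Slc2a4, on chr11:69942539-69948188, was 207.4, 188.8 and 188.7 CPM in WT and 131.8, 138.4 and 144.3 CPM in FI3OE. The groups did not overlap, and the log2 fold change was -0.48 (SE 0.048, adjusted p = 1.38e-05), a level 28.2% lower with a 95% interval of -0.58 to -0.37 on the log2 scale. Slc2a1, on chr4:119108711-119137983, was 108.3, 95.98 and 108.1 CPM in WT and 87.8, 137.7 and 96.96 CPM in FI3OE. It was not called (log2 fold change 0.06, 95% interval -0.23 to 0.35, adjusted p = 0.748), and 1 library, FI3OE replicate 2, set its sign, since without it the value was -0.16 (adjusted p = 0.0746). The Slc2a4 to Slc2a1 ratio of TPM was 1.23 to 1.93 in FI3OE and 2.26 to 2.75 in WT.

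The kinase steps between them were close to level. Pik3r1 (chr13:101680563-101768217) was 634.4, 621.3 and 593.5 CPM in WT and 601.5, 605.1 and 602.0 CPM in FI3OE, a log2 fold change of -0.01 with a 95% interval of -0.09 to 0.06. Akt2 (chr7:27591552-27640826) was 239.2, 249.6 and 238.6 CPM in WT and 234.9, 242.9 and 235.1 CPM in FI3OE, with an interval of -0.09 to 0.07. Akt1 (chr12:112653821-112674884) went from 125.8, 129.2 and 130.0 CPM to 134.4, 133.8 and 132.6 CPM, and Tbc1d4 (chr14:101442360-101609191) from 108.8, 106.3 and 101.9 CPM to 99.4, 101.6 and 98.5 CPM. Their groups did not overlap, but the differences were small (log2 0.08 and -0.06) and were not called (adjusted p = 0.13 and 0.202).

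Ppp2r1b, on chr9:50845301-50894229, was the member that rose. It was 197.0, 203.7 and 197.8 CPM in WT and 337.1, 340.9 and 304.5 CPM in FI3OE, a 1.66-fold level (log2 fold change 0.73, SE 0.047, adjusted p = 3.67e-07). Ppp2r1a, the paralog, had a log2 fold change of 0.10 and was not called (adjusted p = 0.0893). The Ppp2r1b to Ppp2r1a ratio of TPM was 0.928 to 1.04 in FI3OE and 0.544 to 0.614 in WT.

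The calls of Insr, Irs1, Irs2 and Slc2a4 were lost when all 18 libraries shared 1 estimate of the spread (adjusted p = 0.322, 0.303, 0.296 and 0.0921), with values that barely moved, and Ppp2r1b alone stayed called. In the same libraries adipocyte markers moved both ways, with 5 of 14 higher and 5 lower and a median log2 fold change of 0.04. Retn (0.58), Thrsp (0.46) and Adipoq (0.42) were among the higher and Car3 (-0.86) and Cfd, an adipocyte-secreted protease (-0.21), among the lower, while preadipocyte and fibroblast markers were called higher for 3 of 12 and lower for 3. The higher sum of the last list went with Ly6a (log2 fold change 1.83), while the collagens Col1a1 (-0.08) and Col3a1 (-0.09) and the receptor Pdgfrb (-0.24) were lower. The share of reads from the mitochondrial genome was 2.12% to 2.31% in WT and 1.01% to 1.16% in FI3OE. The part of these in the members' differences was not tested.

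**Figure D2:**
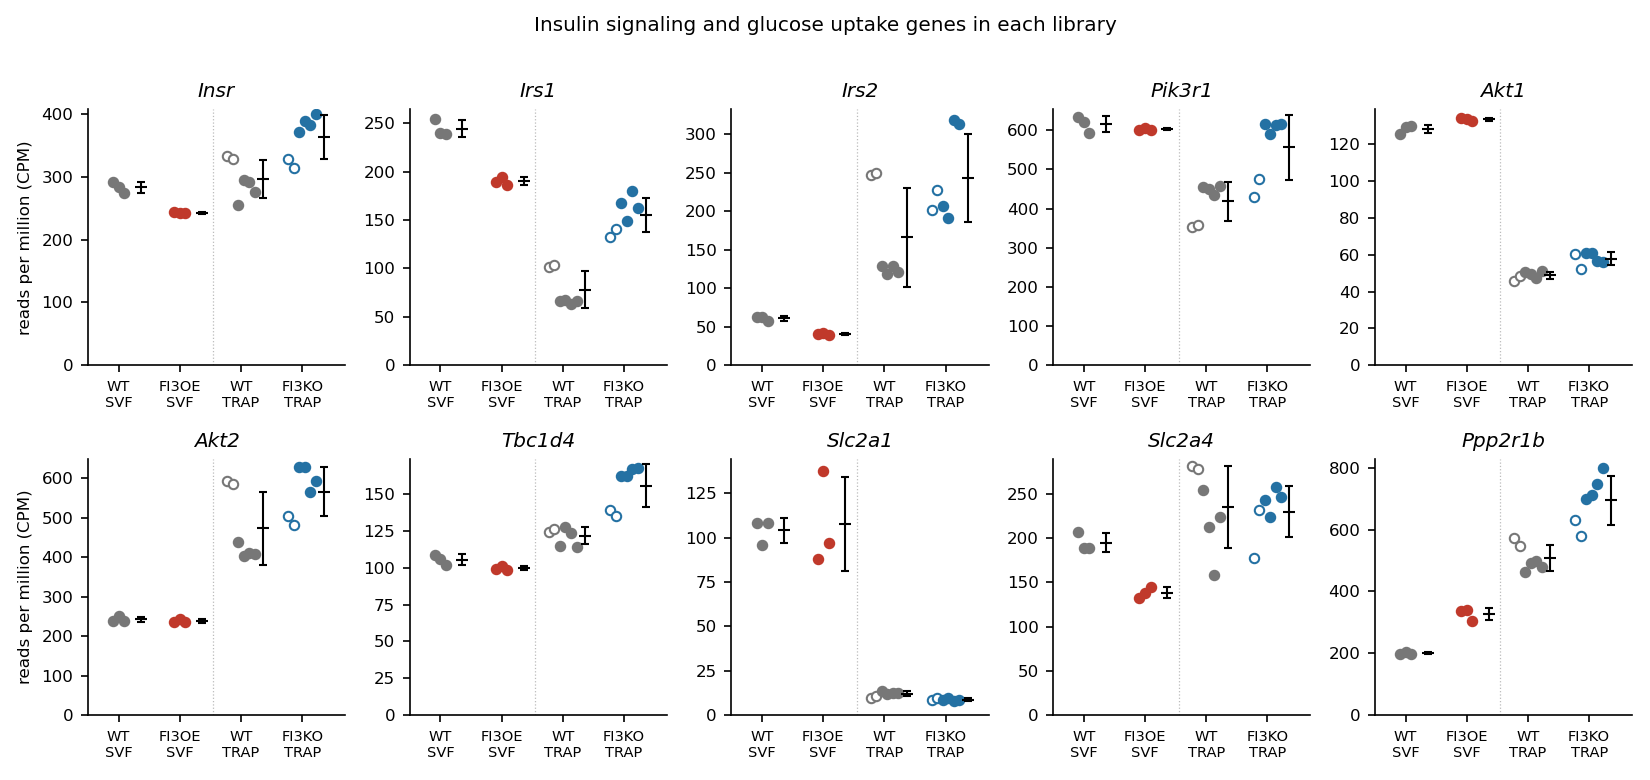
CPM of each gene in every library of the 4 groups, with the mean and SD beside the points. Open points are TRAP replicates 1 and 2. Slc2a4 falls in FI3OE cultures (131.8 to 144.3 CPM against 188.7 to 207.4 CPM), and Irs1 is higher in FI3KO than in WT TRAP without overlap (132.0 to 179.8 CPM against 62.8 to 103.3 CPM).

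In eWAT adipocytes that lacked IRF3, the receptor, Irs1 and several steps down to Tbc1d4 were higher, and Slc2a1 was lower, with differences that varied between sets of libraries. Of the 10 members 7 were called, 6 higher (Insr, Irs1, Pik3r1, Akt1, Tbc1d4 and Ppp2r1b) and 1 lower (Slc2a1), where 37.4% of the 13624 genes tested were called (19.1% higher and 18.3% lower). Irs1 alone passed an absolute log2 fold change of 1, as did 6.61% of all genes. The groups did not overlap for 5 of the 10 members, against 15.2% of all genes. The members' median log2 fold change was 0.37 and that of all genes 0.0163. Most adipocyte markers moved the same way in these libraries, with 7 of 14 called higher, 0 lower and a median of 0.35. Cfd (1.83) rose most. Lpl (-0.23), Cd36 (-0.22), Cidec (-0.16, without overlap) and Pparg (-0.11) lay below 0 and were not called. The part of adipocyte markers in the members' rise was not tested.

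Irs1 changed most. In WT it was 62.8 CPM at the lowest, 66.9 at the median and 103.3 at the highest, and in FI3KO 132.0, 155.6 and 179.8 CPM. Every FI3KO library was above every WT library, and the log2 fold change was 1.04 (SE 0.14, 95% interval 0.72 to 1.35, adjusted p = 0.0003; exact permutation p = 0.00216, the smallest that 6 against 6 can give). The call held in all 23 other fits, with log2 fold changes of 0.47 to 1.37.

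Irs2 was 118.1, 129.4 and 249.8 CPM (lowest, median and highest) in WT and 190.8, 217.2 and 318.3 CPM in FI3KO. WT replicates 1 and 2, at 247.5 and 249.8 CPM, lay inside the FI3KO range and the other 4 WT libraries, at 118.1 to 129.4 CPM, below it. The gene was not called (log2 fold change 0.59, 95% interval 0.09 to 1.09, adjusted p = 0.0619). It was called in 7 of 23 alternatives, among them without WT replicate 1 (log2 fold change 0.738, adjusted p = 0.0201), without WT replicate 2 (0.745, adjusted p = 0.0184) and with DESeq2 (adjusted p = 0.0315), with adjusted p over all 23 of 0.000407 to 0.208. The Irs1 to Irs2 ratio of TPM was 0.298 to 0.467 in FI3KO and 0.233 to 0.316 in WT (exact permutation p = 0.0108, 0.0216 adjusted over 4 ratios).

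Insr was 254.5, 293.7 and 333.7 CPM in WT and 313.3, 376.8 and 399.2 CPM in FI3KO. The groups overlapped through replicates 1 and 2, and the log2 fold change was 0.34 (SE 0.085, adjusted p = 0.00834). The difference lay in replicates 3 to 6 (0.51), since in replicates 1 and 2 it was 0.02 (adjusted p = 0.895), with a mean of 320.8 CPM in FI3KO and 331.3 CPM in WT. Pik3r1 was 352.7, 442.7 and 458.0 CPM in WT and 429.2, 601.5 and 616.3 CPM in FI3KO, a log2 fold change of 0.46 (SE 0.095, adjusted p = 0.00287). Replicates 1 and 2 were lower than replicates 3 to 6 in both genotypes for this gene, so it differed by much the same amount within each set.

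Of the kinases, Akt1 was 45.7, 49.0 and 51.1 CPM in WT and 52.5, 58.4 and 61.0 CPM in FI3KO. Every FI3KO library was above every WT library, though the log2 fold change was only 0.29 (SE 0.049, adjusted p = 0.000775). Akt2, the form that acts on GLUT4 in fat, was 401.7, 423.6 and 592.0 CPM in WT and 482.1, 578.0 and 627.7 CPM in FI3KO. It was not called (log2 fold change 0.30, 95% interval 0.04 to 0.56, adjusted p = 0.0647) but was in 6 of 23 alternatives, among them without WT replicate 1 (0.38, adjusted p = 0.0188) or replicate 2 (0.37, adjusted p = 0.0208), with adjusted p over all 23 of 1.26e-05 to 0.148. The Akt2 to Akt1 ratio of TPM was 5.40 to 7.13 in FI3KO and 5.10 to 8.62 in WT (exact permutation p = 0.781).

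Tbc1d4 was 114.3, 123.8 and 127.8 CPM in WT and 135.5, 162.6 and 167.8 CPM in FI3KO, without overlap (log2 fold change 0.40, SE 0.064, adjusted p = 0.000629). Slc2a4, its downstream cargo, was 158.7, 239.3 and 281.6 CPM in WT and 177.3, 237.8 and 257.7 CPM in FI3KO. The FI3KO range lay inside the WT range, and the log2 fold change was 0.01 with a 95% interval of -0.27 to 0.29 (adjusted p = 0.95), so levels of 0.831 to 1.22 times that of WT lie inside the interval.

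Slc2a1 was the member that fell. It was 9.69, 12.3 and 13.6 CPM in WT and 7.66, 8.55 and 9.50 CPM in FI3KO, from 210 reads upward per library. No library overlapped, and the log2 fold change was -0.41 (SE 0.084, adjusted p = 0.00277). Macrophage markers were called lower for 11 of 13 tested in the same comparison (Cd74, the highest of them, by -1.72 on the log2 scale) and higher for 1 (Cd14, by 1.66), and their sum was 26.7 to 59.1 TPM in FI3KO against 58.7 to 153.7 TPM in WT; their part in the fall of Slc2a1 was not tested. The Slc2a4 to Slc2a1 ratio of TPM was 17.7 to 43.5 in FI3KO and 14.0 to 25.5 in WT and did not pass the test (exact permutation p = 0.121).

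Ppp2r1b was 461.9, 495.8 and 571.4 CPM in WT and 578.5, 705.6 and 797.4 CPM in FI3KO. It was higher without overlap (log2 fold change 0.49, SE 0.085, adjusted p = 0.000988), and so it was higher both with active IRF3 in culture and without IRF3 in eWAT. Ppp2r1a had a log2 fold change of -0.03 (adjusted p = 0.765). The Ppp2r1b to Ppp2r1a ratio of TPM was 1.54 to 1.98 in FI3KO and 0.955 to 1.45 in WT (exact permutation p = 0.00216, 0.00866 adjusted over 4 ratios).

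**Figure D3:**
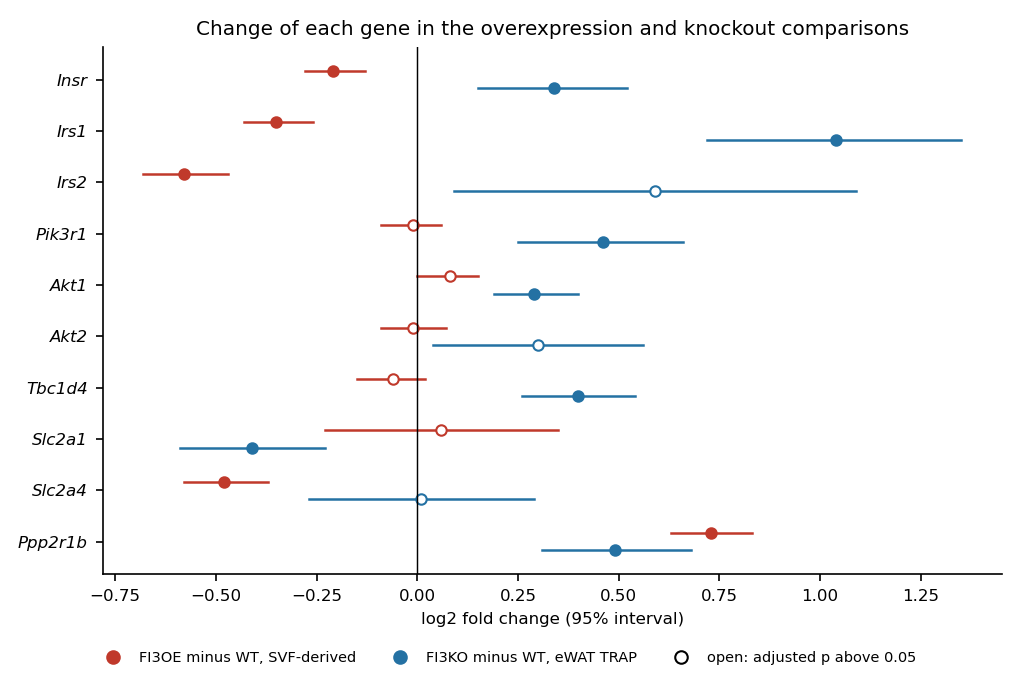
Log2 fold change of each gene with its 95% interval, FI3OE minus WT cultures in red and FI3KO minus WT TRAP in blue. Filled points have an adjusted p of at most 0.05. Insr and Irs1 lie below 0 in FI3OE (-0.21 and -0.35) and above 0 in FI3KO (0.34 and 1.04), while Ppp2r1b lies above 0 in both (0.73 and 0.49).

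The FI3KO differences were not the same in the 2 sets of TRAP libraries. In replicates 3 to 6, 9 of the 10 members were called (50.6% of all genes tested), 8 higher and Slc2a1 lower. In replicates 1 and 2, with 2 libraries a group, 2 of 10 were called, Irs1 and Pik3r1 (3.56% of all genes tested). The difference between the sets, tested as an interaction of genotype and set, was called for 7 of the 10 members and for 26.5% of all genes. Irs2 showed the largest, with a log2 fold change of -0.15 in replicates 1 and 2 and 1.10 in replicates 3 to 6. In the same order, Insr was 0.02 and 0.51, Irs1 0.47 and 1.37, Akt2 -0.20 and 0.59, Tbc1d4 0.20 and 0.50, Slc2a4 -0.39 and 0.24, Ppp2r1b 0.17 and 0.66, and Slc2a1, whose difference was not called, -0.16 and -0.53. Pik3r1 (0.41 and 0.48) and Akt1 (0.33 and 0.28) had nearly equal values in both sets, with differences of 0.08 (SE 0.082) and -0.04 (SE 0.10). Adipocyte markers changed order between the sets too, summing to 83980 and 84670 TPM in WT and 74570 and 76880 TPM in FI3KO in replicates 1 and 2, and to 60160 to 66660 TPM and 89340 to 96000 TPM in replicates 3 to 6. Macrophage markers summed to 58.7 and 60.2 TPM in WT and 48.7 and 59.1 TPM in FI3KO in replicates 1 and 2, and to 106.8 to 153.7 TPM and 26.7 to 31.6 TPM in replicates 3 to 6. In FI3KO, endothelial markers were 63.7 and 90.6 TPM in replicates 1 and 2 and 24.8 to 37.1 TPM in replicates 3 to 6, and epididymal markers 1.96 and 3.14 TPM and 0.0716 to 0.206 TPM. In WT, fibroblast markers were 594.3 and 586.6 TPM and 884.4 to 1290 TPM. Their part in the members' differences was not tested. What sets replicates 1 and 2 apart is not given in the labels, and the set cannot be told apart from whatever else those libraries shared.

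**Figure D4:**
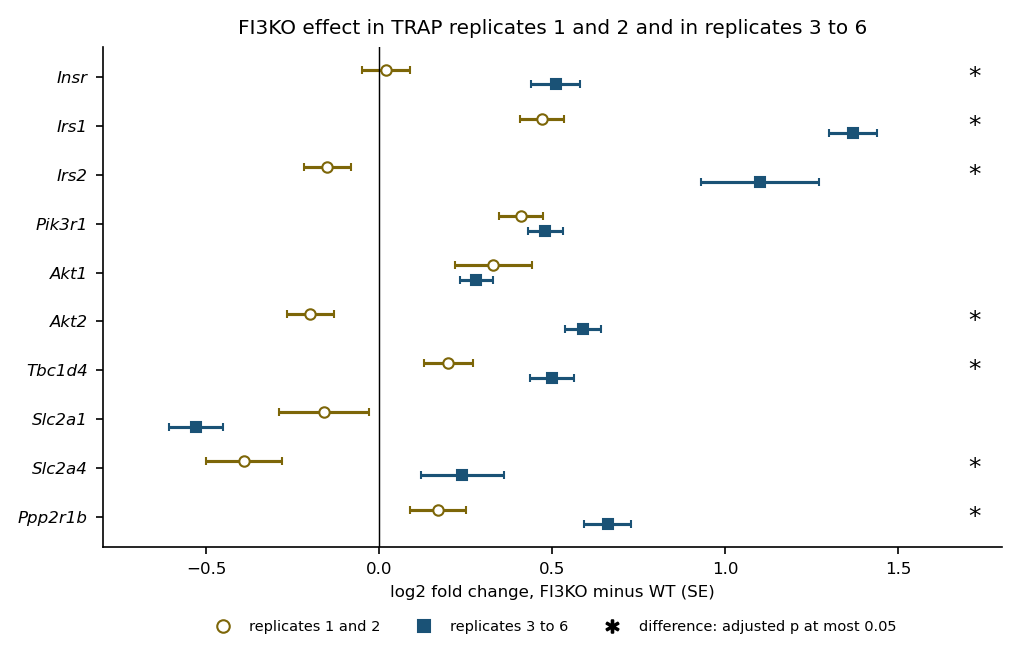
Log2 fold change of each gene, FI3KO minus WT, with its SE, within TRAP replicates 1 and 2 (open circles) and within replicates 3 to 6 (squares). An asterisk marks genes whose difference between the sets has an adjusted p of at most 0.05. Irs2 moves from -0.15 to 1.10 and Akt2 from -0.20 to 0.59, while Pik3r1 (0.41 and 0.48) and Akt1 (0.33 and 0.28) stay in place.

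The transcripts behind the rise of Ppp2r1b were looked at in both experiments. Its 2 main transcripts share 14 exons and 1789 coding bases and part at the 3′ end. Ppp2r1b-202 ends in a last exon of its own, chr9:50879839-50881431, and Ppp2r1b-201 runs on through 3 more exons to chr9:50892656-50894229. The last 30 shared coding bases are shown in lower case, followed by the coding bases of each transcript's own up to the stop codon in capitals, from GENCODE M21 on GRCm38, plus strand.
Ppp2r1b-201: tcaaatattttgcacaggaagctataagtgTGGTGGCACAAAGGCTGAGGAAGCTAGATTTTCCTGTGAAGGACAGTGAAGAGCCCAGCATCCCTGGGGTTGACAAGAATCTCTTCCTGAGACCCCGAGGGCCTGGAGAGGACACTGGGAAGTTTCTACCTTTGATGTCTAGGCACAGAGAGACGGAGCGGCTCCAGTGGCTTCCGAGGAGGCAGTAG
Ppp2r1b-202: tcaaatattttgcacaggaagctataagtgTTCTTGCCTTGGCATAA

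The own part is 188 bases in Ppp2r1b-201 and 17 in Ppp2r1b-202, which makes coding sequences of 658 and 601 codons. In culture, Ppp2r1b-202 went from 98.5, 103.4 and 98.8 CPM in WT to 220.9, 220.2 and 194.0 CPM in FI3OE, 2.11 times the mean, while Ppp2r1b-201 went from 93.2, 95.6 and 94.6 CPM to 82.4, 85.5 and 83.0 CPM. The share of Ppp2r1b-202 among the gene's reads was 50.2% ± 0.43 in WT and 64.6% ± 0.91 in FI3OE (SD, n = 3), and that of Ppp2r1b-201 was 47.4% ± 0.48 and 25.6% ± 1.5. The other 10 transcripts of the gene together went from 5.24, 4.82 and 4.33 CPM to 33.8, 35.3 and 27.5 CPM, which was 2.41% of reads in WT and 9.80% in FI3OE. Among them Ppp2r1b-204, which resembles Ppp2r1b-201 but has a shorter exon 16 and a shorter last exon that stops before Sik2, went from 0 reads in each WT library to 11.7, 16.1 and 21.2 CPM. Neither share of the 2 main transcripts overlapped between the groups, at the smallest exact p of 0.10 (0.40 adjusted over 12 transcripts).

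In TRAP both transcripts had a higher mean in FI3KO, and the ranges overlapped for Ppp2r1b-202 only. Ppp2r1b-201 was 179.5 to 253.6 CPM in WT and 267.6 to 393.6 CPM in FI3KO, and Ppp2r1b-202 was 277.1 to 316.6 CPM and 307.1 to 402.4 CPM. The share moved the other way from that in culture, with Ppp2r1b-202 at 58.1% ± 2.1 of reads in WT and 53.4% ± 2.3 in FI3KO (SD, n = 6; exact permutation p = 0.00866, 0.026 adjusted over 12 transcripts). The groups overlapped in replicates 1 and 2 (55.4% and 56.1% against 57.1% and 53.1%) and not in replicates 3 to 6 (57.9% to 60.8% against 50.5% to 54.5%). Sik2, on the opposite strand at chr9:50892801-51009073, covers 1429 of the 1574 bases of the last exon of Ppp2r1b-201. The library kit keeps no strand, so reads there cannot be told apart, and Sik2 itself was lower in FI3OE (log2 fold change -0.26) and higher in FI3KO (0.56). Ppp2r1b-202 does not reach Sik2.

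Reads of Akt2 were divided differently between 2 transcripts in FI3KO. Akt2-201 starts at position 27605858 of chr7 and Akt2-214 at position 27591746, and both join at the same second exon, which holds the start codon. They also differ at the 3′ end, where Akt2-201 has 1 last exon and Akt2-214 has it split by an intron. Akt2-201 was 178.0 to 288.0 CPM in WT and 256.7 to 373.7 CPM in FI3KO, with Akt2-214 at 152.3 to 251.7 CPM and 132.7 to 226.3 CPM. The share of Akt2-201 was 47.8% ± 3.1 in WT and 57.0% ± 5.2 in FI3KO (SD, n = 6) and did not overlap (43.7% to 51.7% against 52.7% to 66.1%; exact permutation p = 0.00216, 0.026 adjusted over 12 transcripts). In replicates 1 and 2 it was 48.7% and 47.9% in WT and 66.1% and 53.2% in FI3KO, and in replicates 3 to 6 it was 43.7% to 51.7% and 52.7% to 59.6%. In culture it was 33.0% ± 1.5 in WT and 35.0% ± 3.2 in FI3OE (exact p = 0.60). Reads of transcripts were divided by a model and not counted directly, and the shares rest on the reads that tell the transcripts apart.

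**Figure D5:**
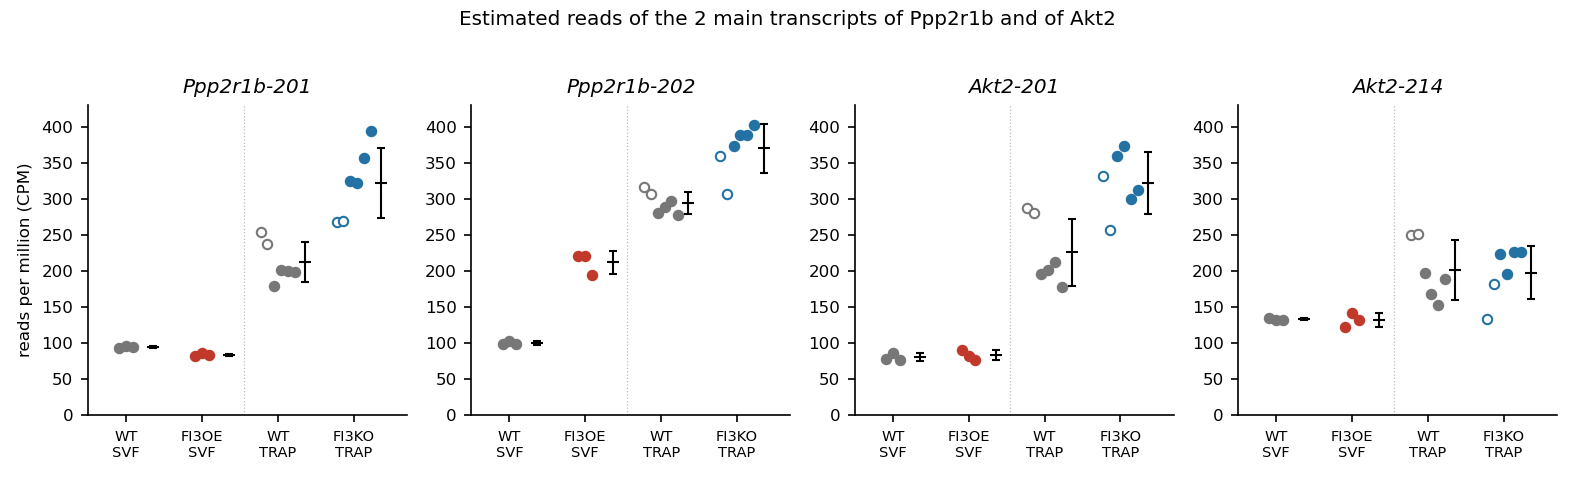
Estimated CPM of 2 transcripts of Ppp2r1b and 2 of Akt2 in every library, with the mean and SD beside the points; open points are TRAP replicates 1 and 2. Ppp2r1b-202 rises from 98.5 to 103.4 CPM to 194.0 to 220.9 CPM in FI3OE while Ppp2r1b-201 does not, and in FI3KO the means of both are higher.

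In TRAP the transcripts tested for Akt1, Tbc1d4, Slc2a1 and Slc2a4 gave no called change in share. In culture no share could be called, since an exact test of 3 libraries against 3 cannot go below p = 0.10. There the shares of Akt1-201 reads did not overlap (84.96% to 87.09% in FI3OE and 87.14% to 87.28% in WT), but its shares of TPM did. Irs1 and Irs2 have 1 transcript each in these tables, and Insr and Pik3r1 had only 1 above 10% of reads, so no share was tested for these 4. Pik3r1-202 held 91.4% to 99.0% of the gene's reads as group means and Insr-201 86.3% to 94.1%. The nonsense-mediated decay transcript Slc2a1-204 held 35.7% ± 2.5 of Slc2a1 reads in WT cultures and 45.4% ± 7.7 in WT TRAP, and the short Slc2a4-208 held 11.3% ± 0.71 of Slc2a4 reads in WT cultures and 2.49% ± 1.7 in WT TRAP, with adjusted p of 0.0909 or more between genotypes. Other genes share exon bases with members on the opposite strand: Gm9747 with 2822 bases of Irs1, 9530052E02Rik with 162 of Irs2 and Gm12868 with 105 of Slc2a1. The highest value in any library was 26.3 CPM for Gm9747, against 62.8 CPM as the lowest for Irs1, and at most 0.502 CPM for the other two.

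Around the members, the rest of the pathway was read from 7 lists of genes by role. The counts of every list stand beside the shares of all genes tested. In FI3OE 37.0% of all genes were called (20.2% higher and 16.8% lower), and in FI3KO 37.4% (19.1% higher and 18.3% lower). A count near these shares is no result about its list, and no list was tested as a set. Among 11 tested receptor and docking proteins 3 were higher and 2 lower in FI3OE (median log2 fold change -0.02), with the adaptors Grb2 at 0.40 and Shc1 at 0.23 higher and Sos1 at -0.15 lower (called in 9 of 13 alternatives). In FI3KO 2 of 10 were higher and 1 lower (median -0.05), and the IGF1 receptor Igf1r rose by 0.55 (adjusted p = 0.00099) from a low level of 2.89 TPM in WT. Of 11 negative regulators 2 were higher and 1 lower in FI3OE, and the pseudokinase Trib3, which can bind AKT, fell most, from 99.1, 95.1 and 95.8 CPM to 23.2, 21.3 and 29.0 CPM (log2 fold change -1.95, adjusted p = 1.56e-08). In FI3KO 3 of 11 were higher and 2 lower. The higher ones were Socs1 (1.15, adjusted p = 0.0205), Grb10 (0.40, adjusted p = 0.0112) and Ikbkb (0.33, adjusted p = 0.00513), named after their values were seen. Over 23 alternatives Grb10 was -0.02 to 0.61 (called in 21) and Ikbkb 0.15 to 0.44 (called in 22). Socs1 was low, at an average log2 CPM of 0.03, and was called in 21. The lower ones were tyrosine phosphatases that can act on the insulin receptor, Ptprf (-0.64, adjusted p = 0.000836) and Ptpn1, which encodes PTP1B (-0.30, adjusted p = 0.00743). Ptpn1 was -0.09 (adjusted p = 0.561) in replicates 1 and 2 and -0.39 in replicates 3 to 6. Ptprf was higher in FI3OE (0.31) and Ptpn1 was not called there (0.04, adjusted p = 0.423).

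Of 20 genes of the PI3K, phosphoinositide and AKT module, 3 were higher and 2 lower in FI3OE (median 0.03) and 4 higher and 1 lower in FI3KO (median 0.07). The catalytic subunit Pik3cb was higher in FI3OE (0.35). Among 9 AKT substrates and outputs, 2 were higher and 3 lower in FI3OE. The citrate lyase Acly rose by 0.50, Foxo1 fell by 0.21 and Pde3b, the phosphodiesterase through which insulin restrains lipolysis, fell by 0.23 on the log2 scale, though Pde3b was called in only 6 of 13 alternatives. In FI3KO Pde3b alone of the 9 was called, with 640.3, 676.7 and 1031 CPM in WT (lowest, median, highest) and 1096, 1214 and 1412 CPM in FI3KO (log2 fold change 0.71, adjusted p = 0.0023). It was 0.20 (adjusted p = 0.129) in replicates 1 and 2 and 1.02 in replicates 3 to 6. Tbc1d1, the paralog of Tbc1d4, was higher in FI3OE (0.15, adjusted p = 0.0181; -0.14 to 0.17 over 13 alternatives, called in 8) and not called in FI3KO (0.06).

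Of 17 genes of GLUT4 vesicle traffic 3 were higher and 6 lower in FI3OE (median -0.07). The Ral GTPase-activating subunit Ralgapa2 (-0.45) and Trarg1, a protein of GLUT4 vesicles (-0.27), were lower, and Vamp8 (0.32) and Rab8a (0.26) higher. In FI3KO 2 of 17 were higher and 1 lower (median 0), the lower one being the SNARE protein Snap23 (-0.53, adjusted p = 0.00059), which was also lower in FI3OE (-0.15, called in 9 of 13 alternatives).

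Among other transporters and genes of glucose trapping, 2 of 11 were higher and 4 lower in FI3OE. Slc2a3, which encodes GLUT3, went from 16.4, 15.6 and 13.9 CPM to 2.86, 5.15 and 4.32 CPM (log2 fold change -1.86, adjusted p = 4.39e-06), and Slc2a6 fell by 1.00 on the log2 scale. The arrestin Txnip, which draws GLUT1 and GLUT4 off the membrane, had a log2 fold change of -0.38, while its relative Arrdc4 (0.64) and hexokinase Hk1 (0.55) were higher. In FI3KO 3 of 10 were higher and 3 lower. Slc2a3 was 4.20 to 10.52 CPM in WT and 14.3 to 21.1 CPM in FI3KO (log2 fold change 1.33, adjusted p = 0.000725; 0.63 in replicates 1 and 2 and 1.79 in replicates 3 to 6), Txnip rose by 0.58 and Slc2a10 had a value of -1.28. Over 23 alternatives Slc2a10 was -1.71 to -0.37 and was called in 22. Slc2a3 is also made by macrophages. In FI3OE 3 of 15 macrophage markers were called lower, Mrc1 (-0.87), Itgam (-0.59) and Csf1r (-0.45), and 2 higher, and their part in the fall of Slc2a3 was not tested.

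The other PP2A subunits were called in both directions. Of 18 tested, 3 were higher and 2 lower in FI3OE (median 0.05), with Ppp2r5b at 0.47 and Ppp2r3a at -0.47. In FI3KO 1 was higher and 7 lower (median -0.14). The striatins Strn (-0.63, adjusted p = 0.000176) and Strn3 (-0.30), the B subunit Ppp2r2a (-0.28) and the catalytic subunit Ppp2ca (-0.18, adjusted p = 0.0365, called in 13 of 23 alternatives) were lower, and Ppp2r3d (0.44) was higher.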

How the data were processed

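The members and the lists of related genes were chosen with earlier results of these data known. The authors trimmed reads with fastp and quantified transcripts with Salmon 1.4.0 (per the labels, GRCm38). The authors deposited, for each of 18 libraries, the expected count, TPM and effective length of 118733 transcripts; TPM is scaled for transcript length and library size. Here transcripts were assigned to genes with GENCODE M21, while the study used M24. By identifier 117850 matched. The other 883 transcripts, together 0.375% to 1.079% of the reads of a library, were each kept as a gene and are among the 33440. Expected counts were summed per gene and rounded, and CPM is a share of all reads of a library, without a TMM factor.

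Each experiment was fitted alone in edgeR 4.0.16 (R 4.3.3) with filterByExpr, TMM and the quasi-likelihood test, adjusted over all genes. The 95% intervals use its standard errors. Exact permutation tests were two-sided (scipy 1.17.1) on log2 ratios or on transcript shares, for transcripts with at least 10% of a gene's reads in a group. From each list, up to 3 genes a direction with the largest change were named among called genes whose groups did not overlap and whose average log2 CPM reached 1, besides 9 genes named whatever their result; some items are not reported here. Sequences were read from RefSeq promoter windows and GENCODE transcripts.

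Alternatives were DESeq2 (1.42.0) size factors and Wald test, no filter, at least 10 counts in every library, a length offset, a replicate block, all 18 libraries in 1 fit, each library left out, a fold cutoff, and for TRAP the replicate sets, the set as a term and WT replicates 1 and 2 summed. On simulated counts with 200 changed genes, the culture design recovered 72% of genes changed by 0.5 on the log2 scale and 89% of those changed by 1 (15876 genes), and the TRAP design 48% and 83% (13451 genes). The simulation changed far fewer genes than the 5960 and 5095 called in the data. It also held no replicate sets, so these rates may differ from those in the data.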

Additional observations from a re-analysis of the deposited data

Results flagged for a closer look

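The difference between FI3KO and WT was not the same in TRAP replicates 3 to 6 as in replicates 1 and 2 for 7 of the 10 members, by edgeR's quasi-likelihood test of the interaction with Benjamini-Hochberg adjustment over 13624 genes. As the log2 fold change in replicates 3 to 6 minus that in replicates 1 and 2, the difference was 1.25 for Irs2 (adjusted p = 0.00449), 0.91 for Irs1 (9.68e-05), 0.79 for Akt2 (8.49e-05), 0.64 for Slc2a4 (0.0373), 0.50 for Insr (0.00694), 0.49 for Ppp2r1b (0.00842) and 0.31 for Tbc1d4 (0.035). In all 7 the value was more positive in replicates 3 to 6. Irs2 was 248.7 ± 1.6 CPM (SD, n = 2) in WT replicates 1 and 2 and 124.5 ± 5.7 CPM (n = 4) in WT replicates 3 to 6, and Akt2 was 589.0 ± 4.2 and 414.0 ± 16.0 CPM. In FI3KO the order of the means was the other way, with Irs2 at 214.7 ± 18.6 and 257.2 ± 67.9 CPM and Akt2 at 492.4 ± 14.5 and 602.7 ± 30.6 CPM. For Irs2 this rested on FI3KO replicates 5 and 6 (318.3 and 313.1 CPM), as replicates 3 and 4 were 206.6 and 190.8 CPM. Adipocyte markers showed the same order, with 83980 and 84670 TPM against 60160 to 66660 TPM in WT and 74570 and 76880 TPM against 89340 to 96000 TPM in FI3KO. Their part was not tested, and the 2 libraries a group in the first set limit the comparison.

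In 28 groups of 6 TRAP libraries (the 10 members and 4 ratios in each genotype) no library stood far from the other 5 by the ratio of its gap to the range, where chance gives about 1.4 such groups. That ratio looks for a single library and cannot mark 2 that stand apart together, as WT replicates 1 and 2 do for Irs2.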

How the results depend on the processing

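Of 14 other settings for the cultures and 24 for TRAP, those that moved a count of calls by over 1.5 times follow. With all 18 libraries in 1 fit, 1572 genes and 1 member were called in FI3OE, against 5960 and 5. With the length offset 3800 genes were called there, and 5 members. A fold cutoff left 583 genes and 0 members in FI3OE and 901 genes and 1 member in FI3KO; TRAP replicates 1 and 2 alone gave 500 genes and 2 members. The counts of genes at the other settings with all libraries, or with TRAP replicates 3 to 6 alone, were within 1.5 times, at 4710 to 6125 in FI3OE and 3632 to 6922 in FI3KO. With single libraries left out, 4949 to 5197 genes and 5 members were called in FI3OE, and 3937 to 5343 genes and 7 to 9 members in FI3KO, the 9 without WT replicate 1 or 2. Among the members and Irf3, signs turned only for values that were not called, except Irf3 in FI3KO, which was 0.71 with the length offset. In FI3OE without a filter Pik3r1 was 0.001 and Akt2 0.005; with libraries left out Pik3r1 was -0.037 to 0.001, Akt2 -0.037 to 0.013 and Slc2a1 -0.16 to 0.19. In FI3KO, replicates 1 and 2 alone gave -0.15 for Irs2, -0.20 for Akt2 and -0.39 for Slc2a4, and Slc2a4 was -0.003 with at least 10 counts, -0.10 with the length offset and -0.079 to 0.07 with libraries left out. The cause was not tested. The replicate number as a block gave 5658 and 3632 genes and the same 5 and 7 members. Same-numbered libraries did not deviate together (correlations of -0.04 to 0.02 in culture and -0.30 to 0.11 in TRAP), so the numbers were not taken to pair them.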
